A study of Mus musculus with 4 samples.

Results

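The semaphorin family of guidance cues and its receptors, the plexins and neuropilins, were followed across cell classes and ages of the mouse prefrontal cortex. The 31 genes were taken by name: 20 semaphorins (7 of class 3, 6 of class 4, 2 of class 5, 4 of class 6 and 1 of class 7), 9 plexins and 2 neuropilins. All 31 were present among the 23847 genes shared by the 4 expression tables, out of 29281 genes listed in any of them.

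Single cells were dissociated from the prefrontal cortex of C57BL/6J mice at postnatal day 1 (P1), P4, P10 and day 84 (Adult) and profiled on the BD Rhapsody platform. Each age was 1 library. The methods give 2 female mice for each age, and no file read here ties a cell to a mouse. An age difference is therefore a difference between 2 libraries without replication, and ages were not tested against each other. Cells were described in classes rebuilt here from marker genes.

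After filtering, 11545, 19014, 15272 and 14087 cells remained at P1, P4, P10 and Adult, with median depths of 25800, 12047, 18057 and 11065 UMIs (unique molecular identifiers) per cell. The P1 library stood apart. It was made with a different pipeline version and bead type, its header names it P0, and it held 37194 Y-linked UMIs against 31 to 34 in each of the others, although the methods name female mice. Differences between P1 and later ages cannot be told apart from these, so ages are compared mainly over P4, P10 and Adult. The 3 later libraries shared 256 to 323 cell labels pairwise, 1.66% to 2.24% of the cells of either library.

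Levels are given as CPM, the summed UMIs of a class scaled to a total of 1000000 without mitochondrial and ribosomal protein genes, and brackets hold exact 95% Poisson intervals, or for ratios exact binomial ones. These cover counting error only. CPM is not adjusted for gene length, so levels are compared between classes and ages for 1 gene at a time, never between genes. Class labels were checked against their marker lists: the 9 oligodendrocyte markers summed to 29967 CPM at P10 and 78188 CPM in Adult in oligodendrocyte-like cells, and to at most 1253 CPM in oligodendrocyte precursor (OPC)-like cells. The 10 microglial markers summed to 16199, 30152 and 47786 CPM in microglia-like cells at P4, P10 and Adult. In oligodendrocyte-like cells they summed to 80.7 CPM at P10 and 282 in Adult. Microglia-like cells were also read as a background for free RNA. Excitatory neuron markers there summed to 1024 CPM at P4, 380 CPM at P10 and 386 CPM in Adult, against 2961, 2784 and 3084 CPM in intratelencephalic (IT)-like neurons. Some neuron classes were less distinct by these sums. In newborn excitatory neurons at P1 their own 5 markers summed to 1096 CPM and the 12 IT markers to 5041. In L5 near-projecting (NP)-like neurons the 6 NP markers summed to 1333 CPM at P4 and 2010 in Adult. The 8 L6 corticothalamic (CT) markers summed there to 2070 and 1192 CPM.

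Semaphorins act on growing axons, dendrites and migrating cells, mostly as repellents, and in the adult on synapses, vessels and immune cells. Class 3 members are secreted and bind a neuropilin that signals together with a class A plexin, except Sema3e, which binds Plxnd1 directly. Classes 4 to 7 are anchored in the membrane and bind plexins directly, as Sema4d does Plxnb1, Sema6a does Plxna2 and Plxna4, and Sema7a does Plxnc1. Plexins carry an intracellular domain that acts on small GTPases, and collapsin response mediator proteins relay class 3 signals to microtubules.

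The study imaged Sema3d and Plxna1 in tissue with pairs of RNA probes, and the sequences of those probes were searched against GENCODE transcripts of the GRCm38 build. They are shown because the gene a probe detects decides which of the levels reported here its image can be set beside. Each probe is 59 bases long, with an arm of 13 bases at either end (capitals) whose complements together make a target site of 26 bases.
Sema3d probe 2: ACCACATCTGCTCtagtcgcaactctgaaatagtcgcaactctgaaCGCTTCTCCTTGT
Sema3d probe 4: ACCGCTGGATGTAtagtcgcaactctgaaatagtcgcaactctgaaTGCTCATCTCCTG
Plxna1 probe 2: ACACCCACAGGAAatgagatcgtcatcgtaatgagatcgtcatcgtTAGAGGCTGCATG
Plxna1 probe 4: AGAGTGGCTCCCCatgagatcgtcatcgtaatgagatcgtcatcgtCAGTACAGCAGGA
All 22 probes labelled Sema3d had an exact match in Sema3d coding sequence and in no other transcript. Probe 2 lay at chr5:12585162-12585187 in exon 18 and probe 4 at chr5:12577716-12577741 in exon 17, both on the plus strand. The methods give 22 pairs for each gene, but only 21 probes labelled Plxna1 were searched. These 21 had no exact match in Plxna1. All 21 matched coding sequence of Plxna3 and nothing else, with probe 2 (target ttcctgtgggtgtcatgcagcctcta) at chrX:74335335-74335360 in exon 11 and probe 4 (target ggggagccactcttcctgctgtactg) at chrX:74339251-74339276 in exon 25. The best alignment to Plxna1 had 8 mismatches for probe 2 and 3 for probe 4. Of the 21 partner probes, all matched Plxna3 and 3 also matched Plxna1. What these probes bound in tissue was not tested here, and the levels of Plxna1 and Plxna3 are given side by side below.

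**Figure D1:**
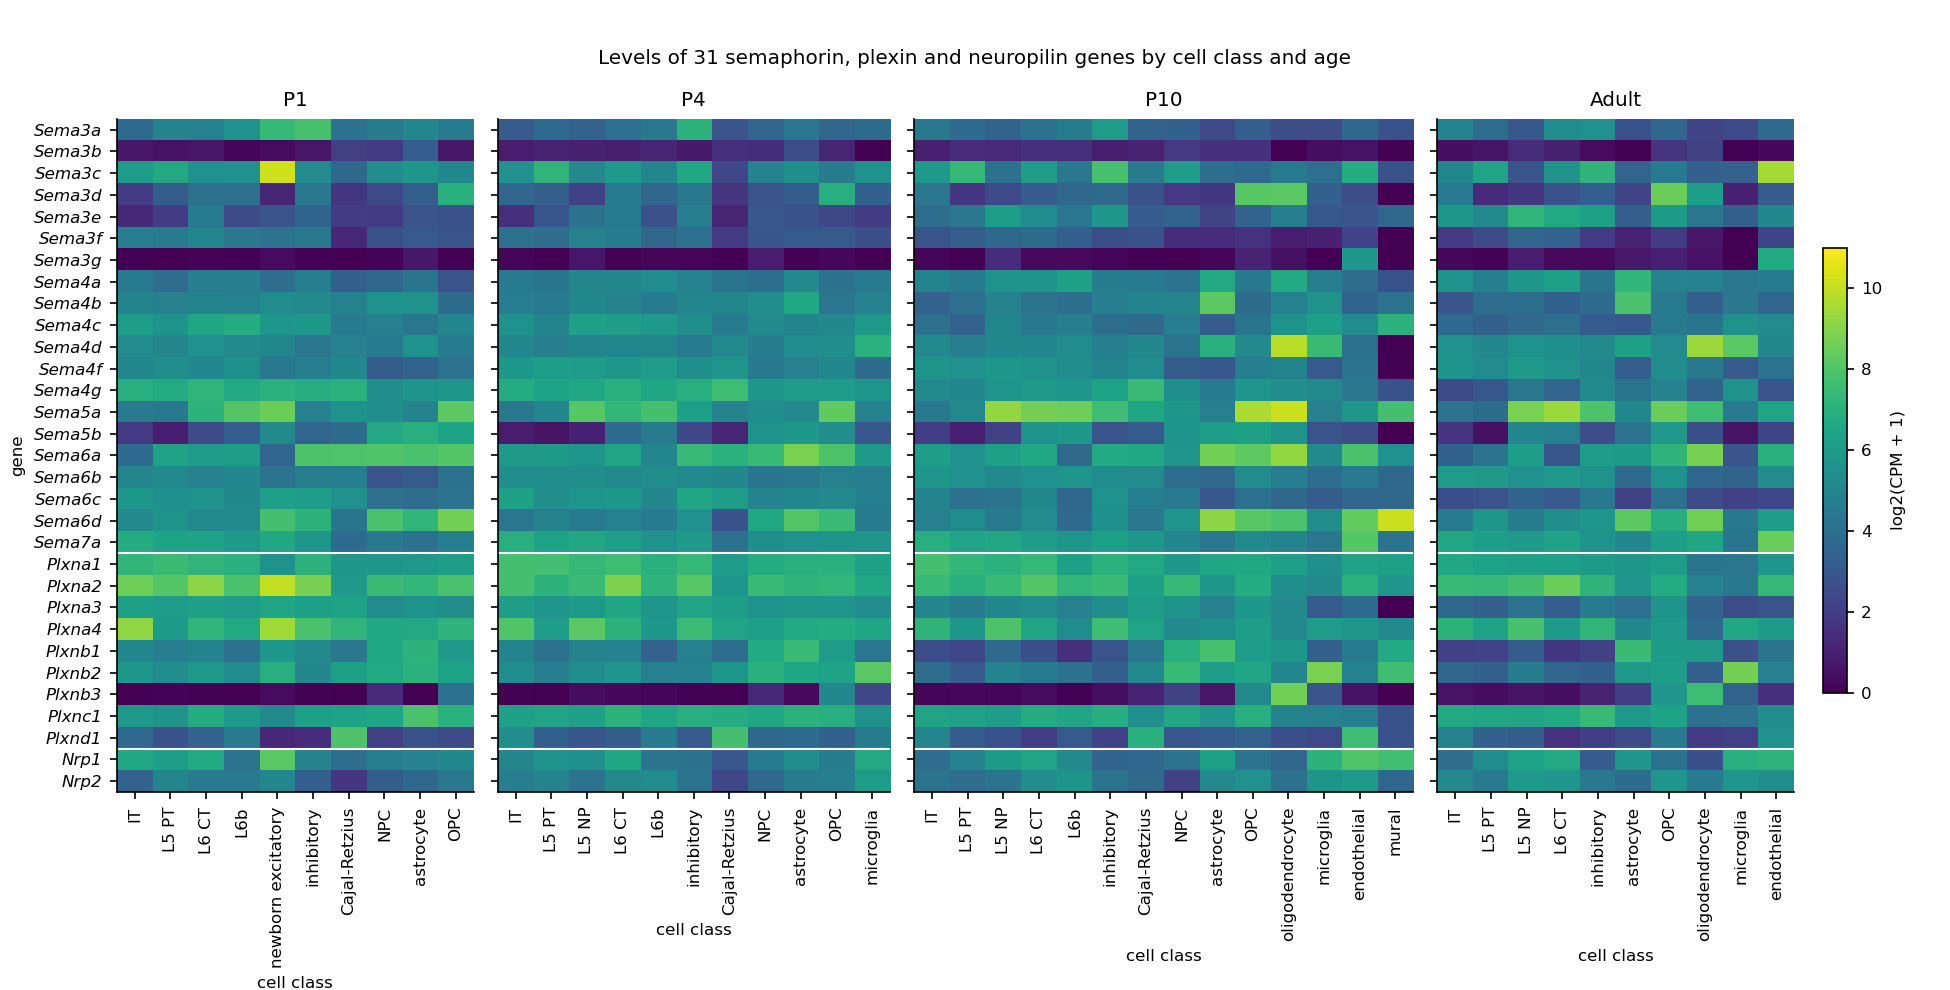
Level of each of the 31 genes (rows, log2 of CPM + 1) in each cell class of at least 50 cells other than the unsorted vascular clusters of P1 and P4 (columns), with 1 panel per library and white lines between semaphorins, plexins and neuropilins. Sema3g is at or near 0 in the classes shown other than endothelial-like cells, Plxnb3 is low outside the oligodendrocyte lineage, and Sema4d is brightest in oligodendrocyte-like cells.

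The leading class of a gene is the one with the highest mean level over the ages at which the class was present, so it need not be highest at each age. The unsorted vascular clusters of P1 and P4, in which endothelial-like and mural-like cells were not separated, were left out of this ranking, and their Sema3g (39.6 and 50.8 CPM) and Plxnd1 (267 and 191 CPM) are given as levels only. For 5 of the 31 members that mean was at least 3 times the mean of the next class, a share near the 14.5% of all genes at 5 CPM or more. These were Sema3g in endothelial-like cells, Sema4b in astrocyte-like cells, Sema4d and Plxnb3 in oligodendrocyte-like cells and Sema6d in mural-like cells. The mural-like class was present at P10 alone, and there its Sema6d level was 2.08-fold that of astrocyte-like cells. At single ages other leads were below 3-fold too. Sema4b in astrocyte-like cells was 1.03-fold [0.856, 1.22] that of neural progenitor-like cells at P1 and 2.21-fold at P4. Sema4d in oligodendrocyte-like cells was 2.24-fold that of microglia-like cells in Adult. The map of levels by class shows the other 26 spread over several columns.

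Among class 3 semaphorins, Sema3a, the collapsing factor for sensory and cortical axons, was highest in inhibitory neurons of 1 type at each age. In inhibitory neurons of the medial ganglionic eminence type (MGE-like), which hold the somatostatin and parvalbumin lineages, its level was 275 CPM at P1, 181 at P4, 89.2 at P10, then 63.8 in Adult. Those of the caudal type (CGE-like), the vasoactive intestinal peptide lineage among them, held 22.2, 15, 9.50 and 4.003 CPM at the same ages. The MGE-like level was above the CGE-like one at every age and lower at each later age, with an Adult over P4 log2 ratio of -1.505 [-1.602, -1.409]. In IT-like neurons the order of ages was opposite from P4 on, with 8.31 CPM at P4, 21.0 at P10, then 29.4 in Adult. With inhibitory neurons taken as 1 class, the leading class of Sema3a by mean level was newborn excitatory neurons. These held 164 CPM at P1, against 225 in all inhibitory neurons at that age.

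Sema3c, which can attract as well as repel axons, had the reverse split between the inhibitory classes. CGE-like neurons held 112, 286, 663 and 484 CPM at P1, P4, P10 and Adult, and MGE-like neurons 19.6, 26.9, 37.2 and 20.02 CPM. The CGE-like level was higher in all 4 libraries and highest at P10. MGE-like and CGE-like cells were all of the inhibitory neurons at P1, P4 and P10 but 923 and 326 of 1405 in Adult, where the 156 cells of cluster 10 were named neither and held 374 CPM of Sema3c and 2.29 CPM of Sema3a. Newborn excitatory neurons, a class found only at P1, had 1167 CPM [1144, 1190], with a UMI in 96.0% of cells. Endothelial-like cells had 110 CPM at P10 and 732 in Adult, a 6.68-fold difference. The class held RNA of other cells, in unequal amounts. Its 10 endothelial markers summed to 11392 CPM at P10 and 20639 in Adult, its 9 mural markers to 5591 and 3608, its 5 blood markers to 7324 and 4233 and its 10 astrocyte markers to 999.7 and 2018. Their part in the endothelial-like age differences given here for Sema3c, Sema3g, Sema7a, Plxnd1 and Nrp1 was not tested.

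**Figure D2:**
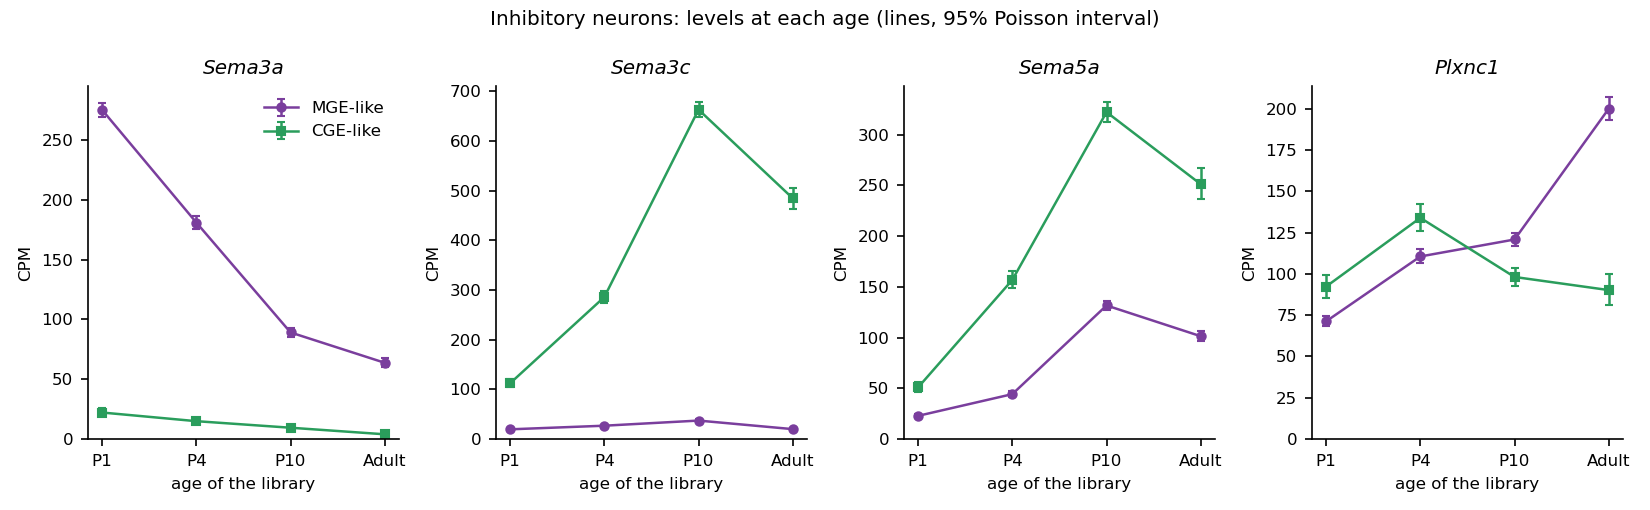
Levels in CPM (y axis, from 0) of Sema3a, Sema3c, Sema5a and Plxnc1 in MGE-like and CGE-like inhibitory neurons at each age (x axis), with 95% Poisson intervals. Sema3a is higher in MGE-like cells and Sema3c and Sema5a in CGE-like cells at every age, while Plxnc1 is higher in CGE-like cells at P1 and P4 and in MGE-like cells at P10 and in Adult (200 against 90.2 CPM).

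Sema3d was led by the oligodendrocyte lineage. OPC-like cells held 125 CPM [112, 138] at P1, 117 [108, 126] at P4, 278 [263, 295] at P10, then 371 [350, 394] in Adult. The P1 and P4 intervals overlapped, and each later library was higher. At equal depth (2000 UMIs per cell) a Sema3d UMI was seen in 22.6%, 43.0% and 58.7% of OPC-like cells at P4, P10 and Adult, against 0%, 1.03% and 0.096% of microglia-like cells. Before thinning the shares were 45.8%, 64.7% and 79.7% of OPC-like cells and 3.90%, 1.84% and 0.381% of microglia-like cells. Median depths were 5844, 4347 and 4666 UMIs in OPC-like and 8242, 4524 and 4259 UMIs in microglia-like cells. The thinned 0 of 76 microglia-like cells at P4 allows a share with a UMI at that depth of up to 3.95% (3 counts of the total), and 3 of 77 had a UMI before thinning.

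The direction of the Sema3d difference between P10 and Adult depended on which cells of the lineage were read. It was higher in Adult in OPC-like cells (log2 ratio 0.42 [0.30, 0.53]). It was lower in oligodendrocyte-like cells, at 287 CPM at P10 against 70.5 in Adult (log2 ratio -2.03 [-2.20, -1.85]). The pooled lineage gave -0.745 [-0.842, -0.648], and -0.13 with finer clusters. The makeup of the oligodendrocyte-like class differed between these libraries: at P10 it was 1 cluster of 272 cells, and in Adult a cluster of 1011 cells (cluster 15) and one of 110 cells (cluster 17). The 6 markers of committed, newly forming oligodendrocytes summed to 7927 CPM in the class at P10 and 1228 CPM in Adult. In Adult, cluster 17 held 226 CPM of Sema3d and cluster 15 34.3 CPM.

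Among the remaining class 3 genes, Sema3e, the Plxnd1 ligand, was led by L5 near-projecting (NP)-like neurons, at 16.1, 70.8 and 144 CPM at P4, P10 and Adult. They were highest in Adult, whereas inhibitory neurons (24.9 CPM) and L6 corticothalamic (CT)-like neurons (21.4 CPM) were above them at P4 and CGE-like neurons (78.9 CPM) at P10. In IT-like neurons it was 1.32, 1.89, 14.8 and 55.6 CPM from P1 to Adult, 29.4-fold higher in Adult than at P4. OPC-like cells showed 4.16 CPM at P4 and 62.6 in Adult, while microglia-like cells showed 2.73 and 9.82. Sema3f, a Nrp2 ligand, was 25.3, 16.1, 6.18 and 2.67 CPM in IT-like and 20.3, 15.2, 5.25 and 2.79 CPM in inhibitory neurons, lower at each later age in both. Its leading class, L6 CT-like neurons, held 32.0, 24.6, 13.9 and 10.1 CPM. Sema3g was 56.6 CPM in endothelial-like cells at P10 and 104 in Adult, and every other class, the unsorted vascular clusters aside, was at most 1.62 CPM. Sema3b was led by astrocyte-like cells, at 8.66, 5.14, 1.85 and 0 CPM. There were 49 UMIs at P4 against 0 in Adult. With the Adult count set at a limit of 3 UMIs it was at least 9.71-fold lower, counting error at P4 not included.

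Class 4 held both glial and neuronal members. Sema4d, a Plxnb1 ligand best known from immune cells, was 910 CPM [873, 949] in oligodendrocyte-like cells at P10 and 658 [639, 678] in the Adult library. Precursors (OPC-like cells) held 22.7, 44.2, 35.2 and 38.8 CPM, and microglia-like cells 128, 178 and 294 CPM from P4 to Adult. At P10 the oligodendrocyte-like level was 25.9-fold that of OPC-like cells and 5.11-fold that of microglia-like cells. In Adult, cluster 17 held 1538 CPM and cluster 15 453.

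Sema4b was 49.7, 94.5, 299 and 230 CPM in astrocyte-like cells from P1 to Adult, and 29.9, 25.1, 9.86 and 6.22 CPM in IT-like neurons. The 2 classes thus differed in opposite directions between P4 and Adult, at 2.44-fold higher and 4.04-fold lower. Sema4a, also led by astrocyte-like cells, was 17.6, 35.6, 98.7 and 151 CPM there, 4.24-fold higher in Adult than at P4. Its level in oligodendrocyte-like cells was 106 CPM at P10 and 27.2 in Adult.

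Sema4g, a Plxnb2 ligand, had the largest fold difference toward lower levels among the members in IT-like neurons. It was 123 CPM [122, 125] at P1, 107 [105, 109] at P4, 37.9 [36.7, 39.0] at P10, then 4.64 [4.17, 5.14] in Adult, 23.0-fold lower in Adult than at P4. The log2 ratio was -4.52, and -6.271 with finer clusters (Leiden resolution 1.0). No 2 of these intervals overlapped. Inhibitory neurons held 114, 120, 83.1 and 36.6 CPM, a smaller fold of 3.28 between P4 and Adult. Cajal-Retzius-like cells, its leading class, held 128, 189 and 181 CPM at P1, P4 and P10. Microglia-like cells held 54.7, 36.5 and 49.8 CPM, so in Adult the IT-like and inhibitory levels were below theirs. Microglia-like cells are therefore no background for this gene at that age. At equal depth a UMI was seen in 20.1%, 6.99% and 0.919% of IT-like cells at P4, P10 and Adult (73.2%, 53.5% and 7.21% before thinning), against 7.89%, 8.39% and 10.3% of microglia-like cells (33.8%, 13.7% and 15.8%).

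Sema4c, also a Plxnb2 ligand, was 49.4, 15.6 and 13.2 CPM in IT-like and 43.3, 14.9 and 7.82 CPM in inhibitory neurons at P4, P10 and Adult. Most of the IT-like difference lay between P4 and P10, and the intervals overlapped in neither step. Its highest level was 134 CPM in the 51 mural-like cells at P10, from only 23 UMIs. Layer 6b (L6b)-like neurons at P1 held 111 CPM [103, 119]. Sema4f stayed between 32.2 and 57.3 CPM in IT-like neurons over all 4 ages. Its leading class, L5 NP-like neurons, held 66.2, 57.1 and 59.2 CPM at P4, P10 and Adult.

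**Figure D3:**
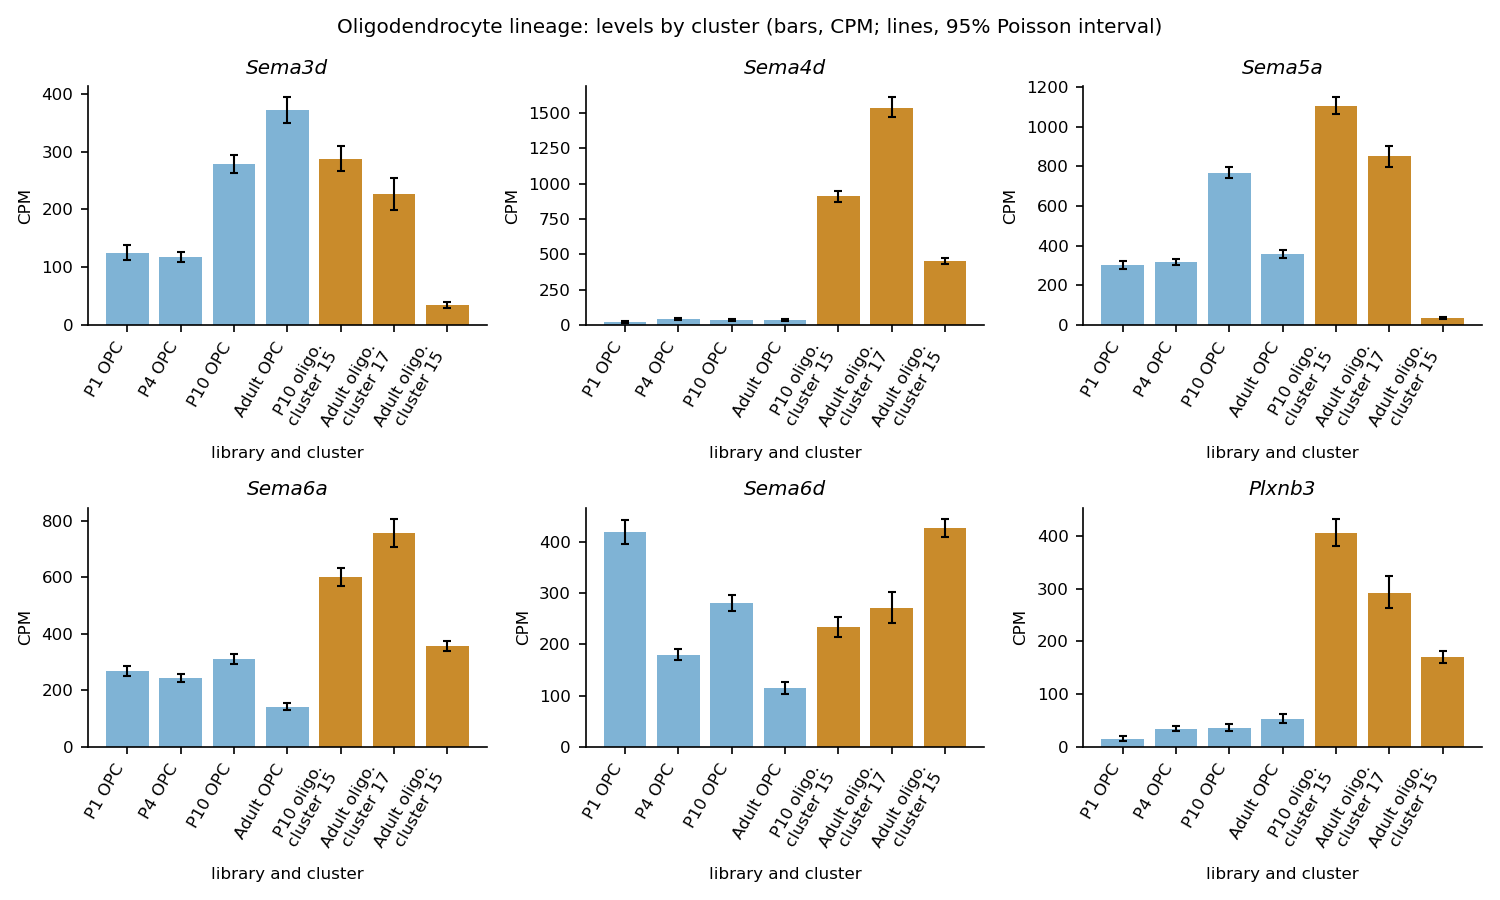
Levels in CPM (bars from 0, lines for 95% Poisson intervals) of 6 members in OPC-like clusters of the 4 libraries (blue) and in oligodendrocyte-like clusters (orange). Sema4d and Plxnb3 are several times higher in every oligodendrocyte-like cluster than in OPC-like cells, while Sema3d and Sema5a are low in Adult cluster 15 (34.3 and 37.8 CPM) and high in Adult cluster 17 (226 and 850 CPM).

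Class 5 semaphorins carry thrombospondin repeats. Sema5a was highest in oligodendrocyte-like cells at P10 (1104 CPM [1063, 1147]) and 191 CPM there in Adult, where cluster 17 held 850 CPM and cluster 15 37.8. OPC-like cells held 302, 318, 768 and 357 CPM, highest at P10. L6 CT-like neurons held 137, 156, 410 and 653 CPM and were 4.19-fold higher in Adult than at P4, whereas IT-like neurons stayed between 17.3 and 22.0 CPM. L5 NP-like neurons had the second highest mean level over ages, 439 CPM. The oligodendrocyte-like level was 1.86-fold that of L5 NP-like neurons at P10 and 0.435-fold in Adult. The unplaced Adult inhibitory cluster 10 had 1166 CPM of Sema5a. Sema5b was 117, 57.9, 68.6 and 17.3 CPM in astrocyte-like cells and 82.5, 42.8, 76.2 and 60.007 CPM in OPC-like cells.

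Among class 6 genes, Sema6a was 229, 446, 402 and 62.5 CPM in astrocyte-like cells, 6.44-fold lower in Adult than at P10. In IT-like neurons it was 13.3, 59.5, 69.8 and 9.78 CPM, with the middle ages highest. Oligodendrocyte-like cells kept 599 CPM at P10 and 432 in Adult, and inhibitory neurons held 242, 173, 102 and 65.4 CPM. Sema6c was 57.2, 77.4, 28.9 and 5.22 CPM in IT-like neurons (14.8-fold lower in Adult than at P4) and 70.4, 86.2, 48.5 and 20.8 CPM in inhibitory neurons (4.14-fold lower). The leading class of Sema6c, newborn excitatory neurons, held 72.9 CPM at P1. Sema6d, a Plxna1 ligand, was 1126 CPM in mural-like cells, from 194 UMIs of 51 cells at P10, the only age at which such a class was described. Astrocyte-like cells held 145, 263, 542 and 296 CPM of it. Sema6b was 31.7, 43.2, 55.7 and 64.01 CPM in IT-like neurons, higher at each later age but by less than 2-fold between P4 and Adult.

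Sema7a, which is anchored by a lipid and binds integrins and Plxnc1, was 277 CPM at P10 and 362 in Adult in endothelial-like cells. IT-like neurons came next, at 110, 120, 118 and 96.3 CPM, and differed by at most 1.24-fold between P4, P10 and Adult.

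**Figure D4:**
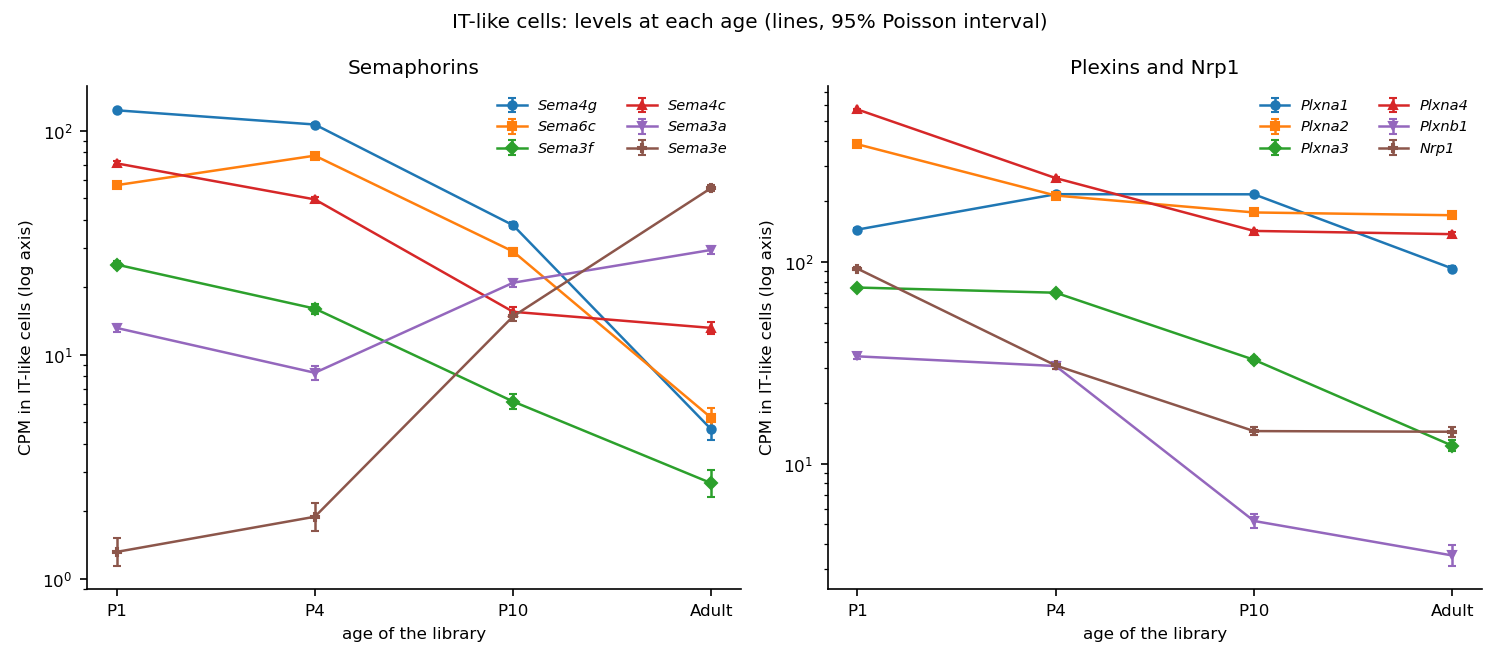
Levels (y axis, CPM, log scale) of 6 semaphorins (left) and of 5 plexins and Nrp1 (right) in IT-like neurons at each age (x axis), with 95% Poisson intervals. Sema4g, Sema6c, Sema3f, Sema4c, Plxna3 and Plxnb1 are lower in Adult than at P4 (Sema4g from 107 to 4.64 CPM), Sema3a and Sema3e are higher, and Plxna1 is level between P4 and P10 and lower in Adult.

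Class A plexins are the signalling partners of neuropilins. Plxna1 was 145 CPM [143, 147] at P1, 217 [214, 220] at P4, 217 [214, 220] at P10, then 93.0 [90.8, 95.1] in Adult in IT-like neurons. P4 and P10 did not differ beyond counting error (log2 ratio -0.001 [-0.028, 0.026]), and Adult was below both (log2 ratio to P10 -1.22 [-1.26, -1.18]). Microglia-like cells held 77.9, 44.6 and 18.9 CPM, so their level was lower in Adult too. At equal depth a Plxna1 UMI was seen in 33.9%, 35.8% and 18.5% of IT-like cells (85.9%, 97.3% and 74.6% before thinning), against 10.5%, 6.92% and 3.28% of microglia-like cells (31.2%, 13.4% and 6.29%).

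Plxna3, the gene matched by the probes labelled Plxna1, had another age course. It was 74.8 CPM [73.4, 76.2] at P1, 70.5 [68.8, 72.2] at P4, 32.8 [31.7, 33.9] at P10, then 12.3 [11.5, 13.1] in Adult in IT-like neurons. Between P4 and P10 it was 2.15-fold lower, where Plxna1 was level, and between P10 and Adult both were lower, Plxna3 by 2.67-fold and Plxna1 by 2.33-fold. Inhibitory neurons held 75.9, 85.3, 40.5 and 22.2 CPM of Plxna3, and OPC-like cells 42.4, 52.5, 57.1 and 51.2 CPM. The leading class of Plxna3, newborn excitatory neurons, held 88.9 CPM at P1.

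Plxna4, a receptor for Sema3a and Sema6a, was 571 CPM at P1, 261 at P4, 143 at P10, then 138 in Adult in IT-like neurons. The Adult over P4 log2 ratio was -0.92 [-0.96, -0.89], and P10 and Adult lay close together. L5 PT-like neurons, which project below the cortex, held 62.2, 67.9, 57.3 and 79.0 CPM, below the IT-like level at every age. Plxna2 was 384, 214, 176 and 171 CPM in IT-like and 546, 451, 265 and 371 CPM in L6 CT-like neurons. Newborn excitatory neurons at P1 had the highest mean level of both, 700 CPM of Plxna4 and 1008 CPM of Plxna2.

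The class B plexins were each led by a glial class. Plxnb1 was 136, 171, 222 and 182 CPM in astrocyte-like cells, while IT-like neurons held 34.1, 30.5, 5.21 and 3.51 CPM and inhibitory neurons 35.7, 27.3, 6.17 and 3.54 CPM. It was thus 8.70-fold lower in Adult than at P4 in IT-like and 7.71-fold lower in inhibitory neurons, with an Adult over P4 log2 ratio of 0.09 [-0.02, 0.20] in astrocyte-like cells. Plxnb2 was 288, 438 and 409 CPM in microglia-like cells at P4, P10 and Adult, and 39.2, 14.5 and 11.8 CPM in IT-like neurons. Plxnb3 was 406 CPM [381, 432] in oligodendrocyte-like cells at P10 and 193 [183, 204] in the Adult library. Precursors (OPC-like cells) held 15.1, 34.3, 36.1 and 52.5 CPM of it, and IT-like neurons 0.028 to 0.492 CPM.

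Plxnc1, the Sema7a receptor, was 71.3, 111, 121 and 200 CPM in MGE-like and 92.3, 134, 98.1 and 90.2 CPM in CGE-like inhibitory neurons. MGE-like cells were below CGE-like cells at P1 and P4 and above them at P10 and in Adult. By mean level over ages, all inhibitory neurons led Plxnc1 at 119.6 CPM, with astrocyte-like cells next at 119.2. Plxnd1, the Sema3e receptor, was 240, 216 and 127 CPM in Cajal-Retzius-like cells at P1, P4 and P10. Endothelial-like cells held 191 CPM at P10 and 46.3 in Adult, 4.11-fold lower, and IT-like neurons 12.3, 43.4, 31.4 and 27.3 CPM.

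Nrp1, the Sema3a co-receptor that also binds vascular endothelial growth factor, differed between excitatory classes. IT-like neurons held 92.8 CPM at P1, 30.7 at P4, 14.5 at P10, then 14.4 in Adult. L6 CT-like neurons held 100, 89.4, 83.6 and 97.2 CPM, so at P4, P10 and Adult their level was above the IT-like one. Newborn excitatory neurons at P1 had 288 CPM, and endothelial-like cells had 258 CPM at P10 and 142 in Adult. Microglia-like cells held 98.4, 137 and 122 CPM, so they are no background for this gene. Nrp2, the Sema3f co-receptor, was led by microglia-like cells, at 65.6, 50.3 and 52.6 CPM, by a small margin. Endothelial-like cells (59.6 CPM) were above them at P10, and L5 NP-like (60.4 CPM) and OPC-like cells in Adult. It was 9.98, 25.5, 18.1 and 37.5 CPM in IT-like and 20.4, 25.3, 46.6 and 54.5 CPM in OPC-like cells.

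Ligands and receptors known as partners were set side by side. Sema3a was highest in MGE-like and, at P1, next in newborn excitatory neurons, and its co-receptor Nrp1 in newborn excitatory neurons, vascular cells and, among the later excitatory classes, L6 CT-like neurons. Microglia-like cells also held Nrp1, at P10 and in Adult above the L6 CT-like level. Sema4d was highest in oligodendrocyte-like cells, where its receptor Plxnb1 was 55.7 CPM at P10 and 59.8 in Adult, against 222 and 182 CPM in astrocyte-like cells. Sema3e was led by L5 NP-like neurons, where Plxnd1 was 6.69, 5.83 and 8.43 CPM, against 127 to 240 CPM in Cajal-Retzius-like cells, 267 and 191 CPM in the unsorted vascular clusters of P1 and P4 and 191 CPM in endothelial-like cells at P10. Sema7a and Plxnc1 were both measured in IT-like neurons, at 96.3 and 103 CPM in Adult, but neither was highest there. In Adult the Sema7a level of endothelial-like cells was 3.755-fold the IT-like one, and the Plxnc1 level of inhibitory neurons 1.67-fold. Binding or contact between these cells was not measured.

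Counted over the family, lower Adult levels outnumbered higher ones in neurons and astrocyte-like cells. Of the 27 members at 5 CPM or more in IT-like neurons, 11 were at least 2-fold lower in Adult than at P4 (19.8% of all genes were) and 3 at least 2-fold higher (15%). The lower ones were Sema3f, Sema4b, Sema4c, Sema4g, Sema6a, Sema6c, Plxna1, Plxna3, Plxnb1, Plxnb2 and Nrp1, and the higher ones Sema3a, Sema3e and Sema4a. The class was made of clusters 3, 4 and 16 at P4 and 0 and 5 in Adult. A P4 cluster of 1310 excitatory cells that could not be named was left out, and with it 12 were lower, Plxna4 added, and 2 higher. In inhibitory neurons 13 of 27 were lower (18.2%) and 2 higher (12.7%). The median log2 ratio of the members was -0.53 in IT-like and -0.97 in inhibitory neurons, beside -0.17 and -0.18 over all genes. Astrocyte markers in neurons differed between these libraries. The 10 markers summed to 93.3 CPM at P4 and 899 in Adult in IT-like neurons. The sums were 183 and 2230 CPM in L6 CT-like and 420 and 2451 CPM in L5 NP-like neurons. Sema4a was led by astrocyte-like cells, and the part of such RNA in these counts was not tested.

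Across the 5 neuron classes present at both ages (IT, L5 PT, L5 NP, L6 CT and inhibitory), 7 members were at least 2-fold lower in Adult than at P4 in each (8.95% of all genes at 5 CPM or more in all 5 classes, against 7 of 25 members): Sema3f, Sema4c, Sema4g, Sema6c, Plxna1, Plxna3 and Plxnb1. Sema3e was the single member higher in each (6.22% of all genes). All these classes come from the same pair of libraries.

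In astrocyte-like cells 15 of 27 members were lower (18.2%) and 2, Sema4a and Sema4b, higher (10.7%), with a median log2 ratio of -1.11 beside -0.235 over all genes. Neuronal RNA moved with this count. The 7 excitatory neuron markers were all detected in astrocyte-like cells and summed to 1081 CPM at P4, 355 at P10, then 529 in Adult, and 21.5% of the P4 cluster was marked as likely doublets against 1.108% in Adult. Without the marked cells the count was 10 in place of 15, losing Plxna1, Plxna4, Plxnd1, Sema3d and Sema4f, and with finer clusters it was 9. In microglia-like cells, 13 of 27 members were lower in Adult too (20.3% of all genes) and 3 were higher (12.2%). What part free or doublet RNA has in the astrocyte-like count was not tested beyond this.

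In OPC-like cells 2 of 28 members, Sema4g and Sema6c, were lower (9.78%), a count that was 0 without the marked doublets, 1 with means of cells and 5 with finer clusters, and 4 were higher (11.3%), namely Sema3d, Sema3e, Plxnd1 and Nrp2. The median member there was at -0.07 beside -0.05 over all genes. Excitatory neuron markers in OPC-like cells summed to 969 CPM at P4 and 1089 in Adult.

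**Figure D5:**
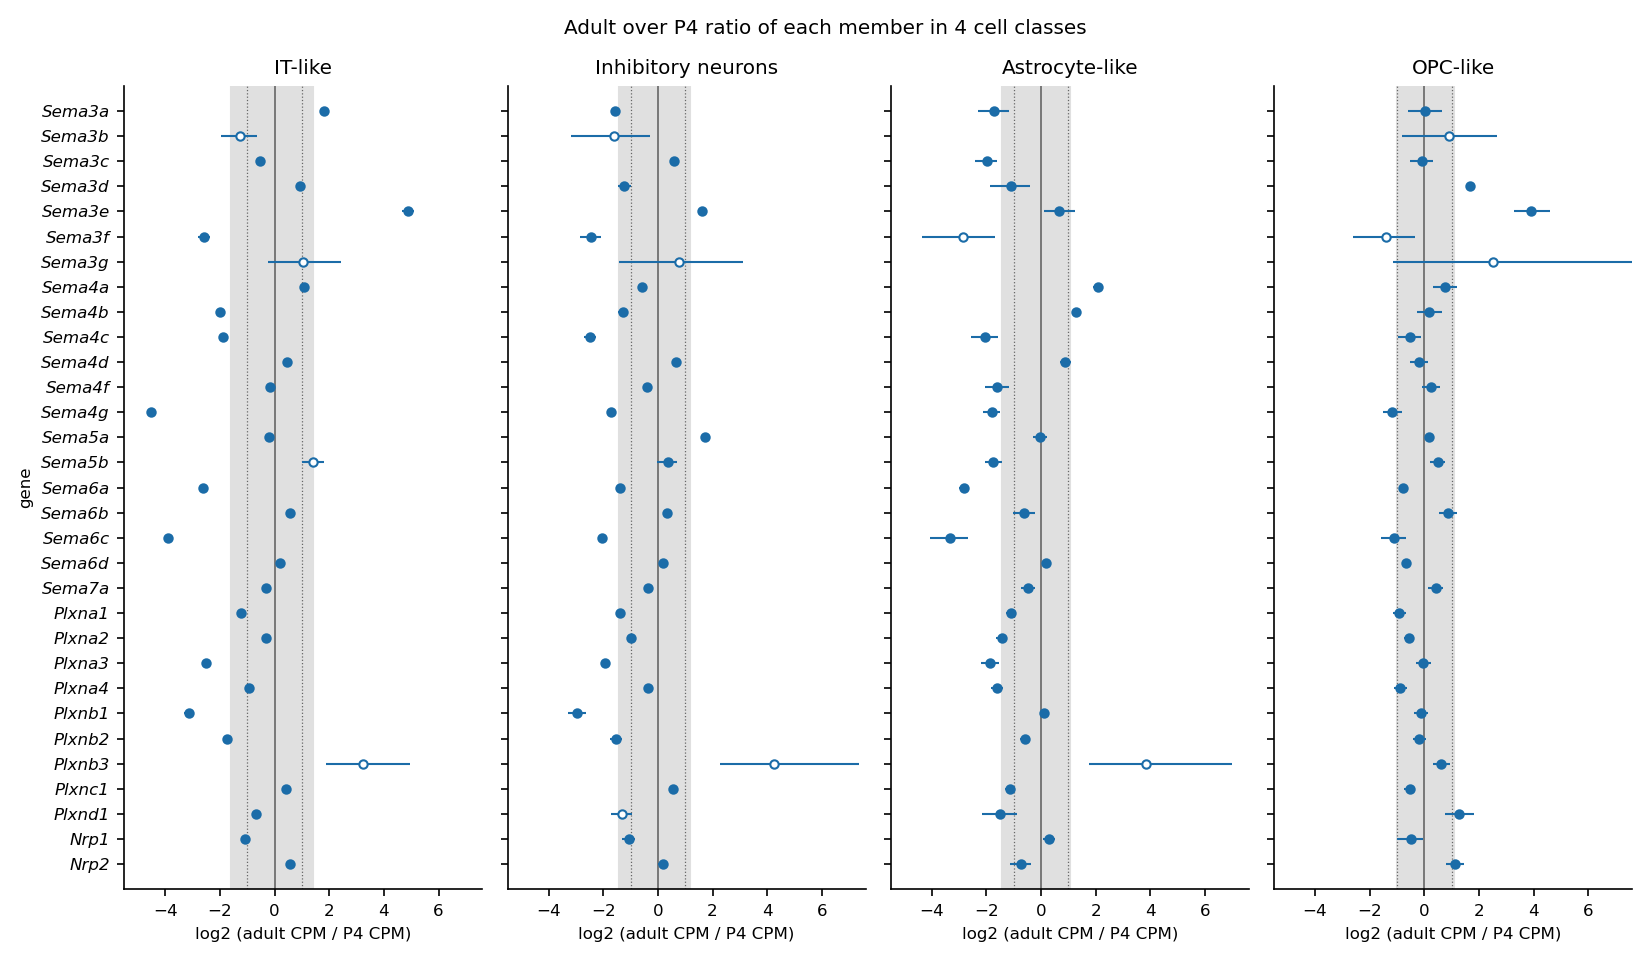
Log2 ratio of Adult to P4 CPM of each member (x axis) in 4 cell classes, with 95% intervals; filled points are members at 5 CPM or more, open points those below, dotted lines mark 2-fold and the grey band runs from the 10th to the 90th percentile of all genes tested. Filled points lie left of the band for 9 members in IT-like neurons, Sema4g and Sema6c farthest, and OPC-like cells have most members near 0.

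A list of 40 genes, co-receptors and downstream partners of the family with Plxdc1 and Plxdc2 added by name only, was read the same way. In IT-like neurons 13 of 34 at 5 CPM or more were at least 2-fold lower in Adult than at P4 and 6 higher, beside 19.8% and 15% of all genes. In inhibitory neurons 13 of 35 were lower and 1, Farp2, higher, beside 18.2% and 12.7%. In astrocyte-like cells, where neuronal RNA and marked doublets differed between the libraries as given above, 14 of 37 were lower and 3 higher, beside 18.2% and 10.7%. In OPC-like cells 8 of 38 were lower and 5 higher, beside 9.78% and 11.3%. All 5 collapsin response mediators on the list were among the lower ones in IT-like neurons. Dpysl3 was 4161 CPM at P4 and 68.3 in Adult, Dpysl5 1225 and 20.8, Crmp1 1728 and 144, Dpysl2 995 and 399, and Dpysl4 66.1 and 23.6. Cntn2, a cell adhesion partner, was 106 and 38.6 CPM. Mical2, an actin-oxidising enzyme, was higher at 138 and 452 CPM, and Pak1, a kinase that acts on the actin cytoskeleton, at 250 and 625 CPM.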

How the data were processed

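Single-cell RNA-seq tables of 4 libraries were analysed. The authors deposited raw UMI counts per cell and gene from the BD Rhapsody WTA pipeline (version 1.11 for P1 and 1.8 for the others per the file headers), with reads of GRCm38 transcripts. P1 was processed with intronic reads not excluded.

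Cells with at least 1000 UMIs, 1000 genes and at most 15% mitochondrial UMIs were kept. Each library was clustered alone with scanpy 1.11.5 (2000 variable genes, 30 principal components, 20 neighbours, Leiden resolution 0.5). Scrublet marked doublets, which were kept except in an alternative and in clusters that they dominated, which were left unnamed. Clusters were named by markers among their 10 leading genes, by a scoring rule set after the clusters were seen. Classes under 50 cells were left out.

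UMIs were summed by class, CPM computed without mitochondrial and ribosomal genes, and members counted past 2-fold where the mean level was 5 CPM or more. Intervals are exact (scipy 1.17.1). For shares of cells, each cell was thinned to 2000 UMIs and shallower cells were left out (0 to 67 cells in each IT-like, OPC-like or microglia-like class). The ratio calculation was tested on simulated counts. The members, the list of 40 pathway genes and the classes were chosen with earlier results of these data known. Each member was described in its leading class. It was described more fully where that class was at least 3-fold above the next, where Adult and P4 differed at least 4-fold, or for Sema3d, Plxna1, Nrp1, Plxna4 and Sema4g, which the study names. Alternatives were stricter filters, doublet removal, Leiden resolution 1.0, CPM over all genes, means of cells, median-of-ratios scaling and no minimum level.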

Additional observations from a re-analysis of the deposited data

How the results depend on the processing

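No paired analysis was possible because each age is 1 library and no result comes from a test. With no minimum level, 6 members in place of 3 were higher in Adult than at P4 in IT-like neurons and 4 in place of 2 in astrocyte-like cells, the added ones from few UMIs. The members lower in astrocyte-like cells numbered 9 in place of 15 at Leiden resolution 1.0. Those lower in OPC-like cells numbered 0 without Scrublet-marked cells, 5 at Leiden resolution 1.0 and 1 with means of cells, in place of 2. The Plxna1 log2 ratio of Adult to P10 in IT-like neurons, -1.22, was -1.369 at Leiden resolution 1.0, -1.15 with means of cells and -1.164 with median-of-ratios scaling. That scaling moves the median of all genes by -0.299 for the oligodendrocyte lineage between P10 and Adult and by -0.117 for IT-like neurons between P4 and Adult. The Sema3d log2 ratio in the lineage, -0.745, was -0.471 with stricter cell filters, -0.13 at Leiden resolution 1.0 and -0.446 with median-of-ratios scaling. In 2 alternatives chosen after seeing the data it was 0.416 in OPC-like cells alone, a reversal, and -2.026 in oligodendrocyte-like cells alone. The Plxna4 log2 ratio of Adult to P4 in IT-like neurons, -0.92, was -0.989 with stricter filters, -1.21 at Leiden resolution 1.0, -0.877 with CPM over all genes, -0.958 with means of cells, -0.806 with median-of-ratios scaling and -1.015 with the unnamed P4 cluster counted as IT-like, the last also chosen after seeing the data. The Sema4g log2 ratio, -4.52, was -6.271 at Leiden resolution 1.0. The causes were not tested. Of 1395 levels of a member in a class and library, the unsorted vascular clusters not counted, 1180 were at 5 CPM or more. Depth limits the smallest classes, such as the 51 mural-like cells.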
